A study of Mus musculus with 8 samples.

Results

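DNA replication and repair genes were followed in MMTV-Wnt/ILK and MMTV-Wnt1 mouse mammary tumors. The group was a list of 57 genes, 46 of replication and the passage into S phase and 11 of repair. A gene counted as measured when a row of the deposited array table was annotated with that gene and no other. This held for 53 of the 57, 43 replication genes and 10 repair genes, out of 14860 genes named in this way among 23332 rows. Each of the 53 had 1 row. Rfc2, Lig1, Rrm2 and Fancd2 had no such row and are not analysed here. Mcm8 is described with the repair genes because its product acts with that of Mcm9 in homologous recombination.

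Before a cell divides, the origin recognition complex, Cdc6 and Cdt1 load the ring-shaped MCM helicase onto DNA. The kinases of S phase then switch it on with Cdc45 and the GINS complex, and polymerases, a sliding clamp and nucleotide-making enzymes copy the genome behind it. Many of these genes are transcribed late in G1 by E2F factors, and recombination, mismatch repair and checkpoint proteins deal with the breaks, gaps and mispairs that copying leaves behind. In a mammary tumor their transcripts are made chiefly by dividing cells.

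Total RNA of 8 snap-frozen tumors, 4 of MMTV-Wnt/ILK mice and 4 of MMTV-Wnt1 mice, was labelled and read on the Affymetrix Mouse Exon 1.0 ST array, 1 array per tumor, and the tumors of each group were described as independent. MMTV-Wnt/ILK mice carried 2 transgenes, Wnt1 and human ILK. MMTV-Wnt1 mice (MMTV-Wnt in the sample titles) carried Wnt1 alone, so both groups shared the Wnt1 transgene. Each transgene was driven by the long terminal repeat of mouse mammary tumor virus, which is active in mammary epithelium. The tumors arose in the mammary fat pads of nulliparous females of the FVB background, ages at removal are not given for the arrayed tumors, and no mouse with ILK alone and no normal gland was among the arrays used here. The comparison asks which transcripts differ once ILK is added to Wnt1.

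Values are log2 expression values, on which a difference of 1 is a doubling, and differences are MMTV-Wnt/ILK minus MMTV-Wnt1. Array medians lay between 6.89 and 7.23 and lower quartiles between 5.50 and 5.62, and the correlation of 2 arrays lay between 0.920 and 0.974. Epithelial transcripts were present in both groups. Epcam was at 12.55 ± 0.19 in MMTV-Wnt/ILK and 12.49 ± 0.27 in MMTV-Wnt1 tumors, and Wnt1 at 10.81 ± 0.23 in MMTV-Wnt/ILK and 10.52 ± 0.53 in MMTV-Wnt1 tumors (SD, n = 4 each). The mouse Ilk row differed by 0.14 with a standard error (SE) of 0.15, a row that may or may not see the human transgene. The groups were compared with limma, a linear model that moderates each row's variance with that of all rows. Over all 23332 rows 0 passed a Benjamini-Hochberg adjusted p of 0.05 with limma. The same held with an equal-variance test of each row, which leaves out that moderation. Both tests assume the same variance in the groups. The limma adjusted p of the 53 genes ran from 0.905 to 0.999. At an unadjusted p under 0.05, the looser threshold used below to pick genes for description, 2.21% of all rows were lower and 2.91% higher.

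E2F letters were frequent in the promoters of the replication and repair genes. The choice of genes did not use the letters themselves. Many of these genes are known to be transcribed by E2F factors, so the share is not independent of that choice. E2F factors bind DNA with a run of T followed by G and C, and the letters TTTCCCGC, TTTCGCGC, TTTGCCGC and TTTGGCGC were searched on both strands from 250 bases before to 50 bases after each RefSeq start on GRCm38.p6. Promoter entries existed for 45 of the 53 genes, with 52 promoters in all. A match was found in 18 of the 52, or 34.6%, against 2.26% of all 32851 promoters and 3.17% of the promoters of genes named on the array. The share was 33.3% of the replication promoters and 40.0% of the repair promoters. It was 4.17% of the promoters of mitosis genes, listed below, which are used later in the cell cycle. The letters TTTGAA, the CHR element of many mitosis genes, were in 21.2% of the replication and repair promoters, 70.8% of the mitosis promoters and 17.9% of all promoters. CCAAT, a box found in many promoters, was in 59.6% of the replication and repair promoters, 18 of 24 mitosis promoters and 37.4% of all promoters. Promoter entries were not found for Gmnn, Mcm4, Gins1, Gins2, Prim2, Pole, Ccne2 and Exo1. A match is a run of letters, and neither binding nor its absence was measured.

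The genes with a match were Orc1, Orc3, Cdc6, Cdt1, Mcm3, Mcm5, Mcm6, Mcm7, Gins3, Pola1, Pold1, Pole2, Rfc3, E2f2, Bard1, Brca2, Mcm8 and Msh6. The promoters of 2 helicase subunits with matches, 1 repair gene with a match and 1 lower gene with none are printed 5′ to 3′ on the strand of the gene, with E2F letters in capitals. Mcm6 (chr1:128359656-128359955, minus strand) had 3 matches starting 110, 106 and 47 bases before the start, the first 2 of them overlapping. Mcm7 (chr5:138171834-138172133, minus strand) had 1 match 165 bases before and 1 match 16 bases after the start, and a further Mcm7 promoter in the table had none. Msh6 (chr17:87974800-87975099, plus strand) had 1 match 15 bases after the start. Rrm1 (chr7:102441445-102441744, plus strand) had none, which says only that these letters are not in this window. Fen1 and Rpa2 also had no match in theirs.
Mcm6: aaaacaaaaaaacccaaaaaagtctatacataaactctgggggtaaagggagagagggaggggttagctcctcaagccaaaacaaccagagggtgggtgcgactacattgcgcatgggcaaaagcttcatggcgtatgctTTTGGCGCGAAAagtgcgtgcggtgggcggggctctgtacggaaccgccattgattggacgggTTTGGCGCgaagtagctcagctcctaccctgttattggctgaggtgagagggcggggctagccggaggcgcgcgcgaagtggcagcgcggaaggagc
Mcm7: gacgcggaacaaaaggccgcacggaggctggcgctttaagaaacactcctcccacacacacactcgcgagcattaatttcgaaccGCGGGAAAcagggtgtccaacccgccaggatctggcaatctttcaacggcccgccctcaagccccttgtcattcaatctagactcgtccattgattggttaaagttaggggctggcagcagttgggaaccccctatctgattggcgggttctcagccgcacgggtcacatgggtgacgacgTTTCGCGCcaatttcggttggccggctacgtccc
Msh6: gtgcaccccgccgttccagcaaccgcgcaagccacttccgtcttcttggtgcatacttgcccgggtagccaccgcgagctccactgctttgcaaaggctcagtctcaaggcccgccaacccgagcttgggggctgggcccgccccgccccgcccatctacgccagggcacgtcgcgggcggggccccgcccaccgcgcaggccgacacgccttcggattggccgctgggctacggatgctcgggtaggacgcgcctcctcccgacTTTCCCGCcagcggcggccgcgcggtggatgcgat
Rrm1: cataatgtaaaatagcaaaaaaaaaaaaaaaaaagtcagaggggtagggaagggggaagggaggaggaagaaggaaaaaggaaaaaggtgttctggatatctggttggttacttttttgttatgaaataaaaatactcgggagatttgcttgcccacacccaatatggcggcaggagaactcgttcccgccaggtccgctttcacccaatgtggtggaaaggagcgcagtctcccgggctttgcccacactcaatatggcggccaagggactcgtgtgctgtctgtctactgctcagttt

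Most of the 53 genes averaged slightly lower in MMTV-Wnt/ILK tumors, and in all but 2 of them the values of the groups overlapped. The mean was lower for 47 of the 53, or 88.7%, against 54.7% of all rows and 59.2% of all named genes. It was higher for 6, against 45.3% of all rows and 40.8% of all named genes, and these were Orc3, Gins2, Tyms, Tk1, Ccne1 and Brca2, the last of them by the most, 0.08. The median log2 fold change was -0.19, against -0.03 over all rows and -0.05 over all named genes. This held for both classes, with 38 of 43 lower and a median of -0.18 for replication, and 9 of 10 lower and a median of -0.21 for repair. At an unadjusted p under 0.05, 5 of the 53 were lower, or 9.43%, beside 2.21% of all rows and 1.82% of all named genes. The number that were higher was 0, beside 2.91% of all rows and 1.84% of all named genes. All 5 were replication genes, Gins1, Fen1, Rrm1, Mcm7 and Rpa2. In 2 of them, Fen1 and Rrm1, every MMTV-Wnt/ILK tumor lay below every MMTV-Wnt1 tumor, as in 1.42% of all rows and 1.43% of all named genes. The reverse held for 0 of the 53, beside 1.47% of all rows and 1.26% of all named genes. The SE of a difference ran from 0.143 to 0.321 over the 53 genes, with a median of 0.199, close to the size of the median difference. All 53 were read in the same 8 tumors, so a count of genes is not a count of independent observations. In whole tumors, fewer dividing cells and less RNA per cell cannot be told apart.

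**Figure D1:**
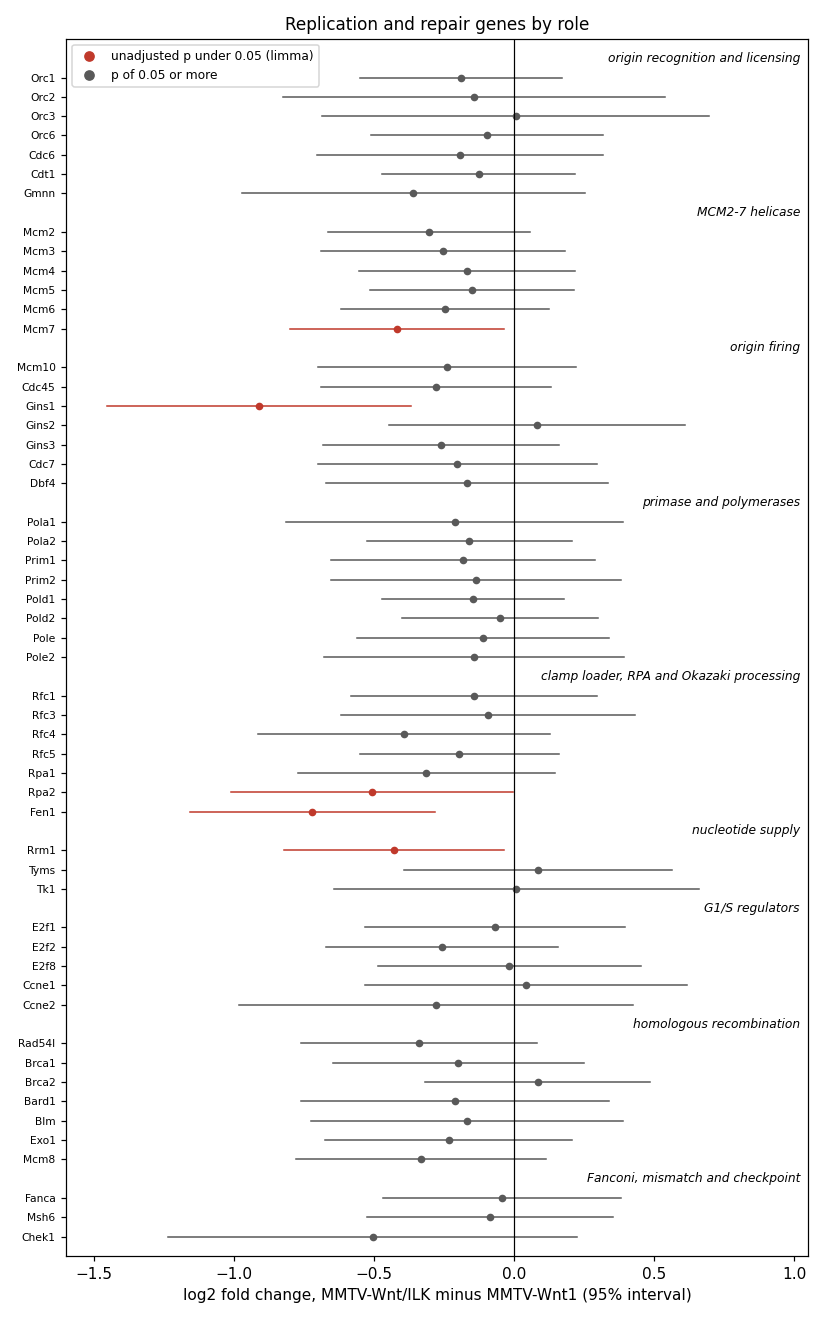
Log2 fold change of the 53 measured replication and repair genes, MMTV-Wnt/ILK minus MMTV-Wnt1 (points), with the limma 95% interval (lines, n = 4 tumors each), grouped by role. Of the 53 points 47 lie left of 0, and the intervals of 5 genes (red, unadjusted p under 0.05) do not reach 0.

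Among the genes that load the helicase onto origins, no difference passed an unadjusted p of 0.05. Of 7 measured genes 6 had a lower mean, with a median of -0.14. Lower means made up 54.7% of all rows and 59.2% of all named genes, beside which the count of each role is to be read. Gmnn encodes geminin, which holds Cdt1 back so that origins are not loaded again in S phase. It was at 5.05, 5.60, 5.32 and 5.52 in MMTV-Wnt/ILK tumors 1 to 4 and at 5.09, 5.95, 6.33 and 5.55 in MMTV-Wnt1 tumors 1 to 4. The groups overlapped, and the difference of -0.36 (SE 0.27) had an unadjusted limma p of 0.214 and an exact 2-sided permutation p of 0.286. Of the exact test, used for single genes over the 70 assignments of the 8 tumors, the smallest possible p is 0.0286. The Gmnn difference was -0.57 without MMTV-Wnt1 tumor 1, with an unadjusted p under 0.05, and -0.16 without MMTV-Wnt1 tumor 3. These Gmnn values lie around the lower quartile of the arrays, where signals are dim. Cdc6 and Cdt1, the loading factors, differed by -0.19 and -0.13. The origin recognition subunits ran from -0.19 for Orc1 to 0.0046 for Orc3.

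All 6 subunits of the MCM2-7 helicase averaged lower in MMTV-Wnt/ILK tumors, from -0.15 for Mcm5 to -0.42 for Mcm7, with a median of -0.25. Mcm7 was at 8.31, 8.93, 8.52 and 8.72 in MMTV-Wnt/ILK tumors 1 to 4 and at 8.87, 9.11, 9.15 and 9.02 in MMTV-Wnt1 tumors 1 to 4. MMTV-Wnt/ILK tumor 2 lay above MMTV-Wnt1 tumor 1, and the other 3 of the MMTV-Wnt/ILK group were under every MMTV-Wnt1 value. The means were 8.62 ± 0.27 in MMTV-Wnt/ILK and 9.04 ± 0.12 in MMTV-Wnt1 tumors (SD, n = 4 each), a fold change of 0.748, with an unadjusted limma p of 0.0353, an adjusted p of 0.905 and an exact permutation p of 0.0571. Without any 1 of 6 of the 8 tumors, all but MMTV-Wnt/ILK tumor 2 and MMTV-Wnt1 tumor 1, the unadjusted p of Mcm7 no longer lay under 0.05. Mcm2 was at 8.94, 9.14, 9.11 and 9.42 in MMTV-Wnt/ILK tumors and at 9.37, 9.58, 9.61 and 9.27 in MMTV-Wnt1 tumors. Here MMTV-Wnt/ILK tumor 4 was the one that overlapped, and the difference of -0.30 (SE 0.16) had an unadjusted limma p of 0.0889. Mcm3, Mcm4 and Mcm6 differed by -0.26, -0.17 and -0.25.

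Among the 7 genes that turn the loaded helicase into a moving fork, 6 had a lower mean, with a median of -0.24. Gins1, a subunit of the GINS complex that joins Cdc45 and the MCM ring, had the lowest log2 fold change of all 53 genes. It was at 5.68, 6.25, 5.70 and 5.50 in MMTV-Wnt/ILK tumors 1 to 4 and at 6.13, 6.98, 6.90 and 6.76 in MMTV-Wnt1 tumors 1 to 4. Only MMTV-Wnt/ILK tumor 2 and MMTV-Wnt1 tumor 1 crossed, and the other 3 MMTV-Wnt/ILK values, 5.50 to 5.70, lie close to the arrays' lower quartiles. The means were 5.78 ± 0.32 in MMTV-Wnt/ILK and 6.69 ± 0.38 in MMTV-Wnt1 tumors (SD, n = 4 each), a log2 fold change of -0.91 (SE 0.24, 95% interval -1.45 to -0.37) and a fold of 0.532. The unadjusted limma p was 0.00431, the adjusted p 0.905 and the exact permutation p 0.0571. The other GINS subunits did not share this difference in size, with 0.08 for Gins2, -0.26 for Gins3 and -0.21 for Gins4. Gins4 is from a list of other replication genes described below. The difference between subunits was not tested. Cdc45 differed by -0.28, Mcm10 by -0.24, and Cdc7 and Dbf4, the kinase that fires origins and its activator, by -0.20 and -0.17.

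All 8 measured genes of primase and the replicative polymerases had a lower mean, beside 59.2% of all named genes. Their differences lay within a narrow range of -0.21 to -0.05. The median was -0.15, against -0.05 over all named genes. Pold1, the catalytic subunit of polymerase delta, had the smallest p of the 8. It was at 7.75, 7.97, 7.76 and 7.93 in MMTV-Wnt/ILK tumors 1 to 4 and at 8.07, 8.11, 8.06 and 7.76 in MMTV-Wnt1 tumors 1 to 4. In 3 of 4 MMTV-Wnt1 tumors it was above every MMTV-Wnt/ILK tumor, and MMTV-Wnt1 tumor 4 was nearly as low as the lowest of them. The difference was -0.15 (SE 0.14) with an unadjusted limma p of 0.327 and an exact permutation p of 0.200. Without MMTV-Wnt1 tumor 4 it was -0.23 (SE 0.15), with an unadjusted limma p of 0.157. Pola1 and Prim1, the catalytic subunits of polymerase alpha and primase, differed by -0.21 and -0.18, and Pole, that of polymerase epsilon, by -0.11.

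The genes that load the clamp, cover single-stranded DNA and finish the lagging strand had the lowest median of the replication roles, -0.31, and all 7 had a lower mean. Fen1, the flap endonuclease that trims Okazaki fragments before they are joined, was at 7.31, 8.03, 7.58 and 7.58 in MMTV-Wnt/ILK tumors 1 to 4 and at 8.10, 8.50, 8.55 and 8.24 in MMTV-Wnt1 tumors 1 to 4. Every MMTV-Wnt/ILK tumor lay below every MMTV-Wnt1 tumor, with MMTV-Wnt/ILK tumor 2 closest to the other group. The means were 7.63 ± 0.30 in MMTV-Wnt/ILK and 8.35 ± 0.22 in MMTV-Wnt1 tumors (SD, n = 4 each), a log2 fold change of -0.72 (SE 0.19, 95% interval -1.16 to -0.28) and a fold of 0.607. The unadjusted limma p was 0.00480, the adjusted p 0.905 and the exact permutation p 0.0286. Fen1 and Gins1 kept an unadjusted p under 0.05 without any single tumor and under every other setting tried.

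Rpa2, a subunit of the protein that coats single-stranded DNA, was at 8.03, 8.76, 8.18 and 8.33 in MMTV-Wnt/ILK tumors 1 to 4 and at 8.36, 9.06, 9.05 and 8.86 in MMTV-Wnt1 tumors 1 to 4. As with Mcm7 and Gins1, the overlap came from MMTV-Wnt/ILK tumor 2 and MMTV-Wnt1 tumor 1. The means were 8.33 ± 0.31 in MMTV-Wnt/ILK and 8.83 ± 0.33 in MMTV-Wnt1 tumors (SD, n = 4 each), a difference of -0.51 with an unadjusted limma p of 0.0481, an adjusted p of 0.905 and an exact permutation p of 0.0571. With an equal-variance test the unadjusted p of Rpa2 was over 0.05, as it was in limma without any 1 of the same 6 tumors as for Mcm7. Rpa1, its larger partner, differed by -0.31. The clamp loader subunits Rfc1, Rfc3, Rfc4 and Rfc5 differed by -0.14, -0.09, -0.39 and -0.20.

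**Figure D2:**
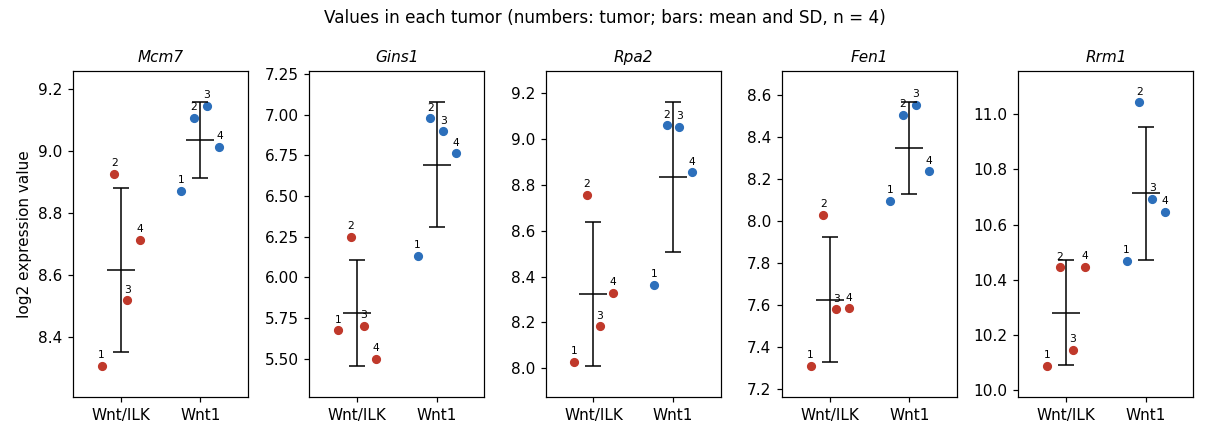
Log2 expression value of Mcm7, Gins1, Rpa2, Fen1 and Rrm1 in each tumor (points, numbered by tumor), with the mean and SD of each group (bars, n = 4), MMTV-Wnt/ILK left and MMTV-Wnt1 right. Each panel has its own log2 axis, which does not start at 0. The 2 groups do not overlap for Fen1 and Rrm1, and for the others MMTV-Wnt/ILK tumor 2 lies above MMTV-Wnt1 tumor 1.

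The genes of nucleotide supply did not move together. Rrm1, the large subunit of ribonucleotide reductase, was at 10.09, 10.45, 10.15 and 10.45 in MMTV-Wnt/ILK tumors 1 to 4 and at 10.47, 11.04, 10.69 and 10.65 in MMTV-Wnt1 tumors 1 to 4. The groups did not overlap, but the highest MMTV-Wnt/ILK tumor and the lowest MMTV-Wnt1 tumor were nearly level. The means were 10.28 ± 0.19 in MMTV-Wnt/ILK and 10.71 ± 0.24 in MMTV-Wnt1 tumors (SD, n = 4 each), a difference of -0.43 (SE 0.17) and a fold of 0.742, with an unadjusted limma p of 0.0348, an adjusted p of 0.905 and an exact permutation p of 0.0286. The unadjusted limma p was over 0.05 without MMTV-Wnt/ILK tumor 1 or 3 and without MMTV-Wnt1 tumor 2, 3 or 4. Tyms, thymidylate synthase, was at 7.52, 7.83, 7.72 and 8.39 in MMTV-Wnt/ILK tumors and at 7.52, 8.0, 7.74 and 7.87 in MMTV-Wnt1 tumors. Only MMTV-Wnt/ILK tumor 4 stood above the rest, and the difference of 0.08 (SE 0.21) had an exact permutation p of 0.800. Without MMTV-Wnt/ILK tumor 4 the Tyms difference was -0.09. Tk1, thymidine kinase, differed by 0.0077 (SE 0.29).

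The 5 regulators of entry into S phase had 4 lower means and a median of -0.07, closer to 0 than that of any other replication role but nucleotide supply. E2f2, an activating E2F factor, was at 6.40, 6.61, 6.65 and 6.60 in MMTV-Wnt/ILK tumors and at 6.60, 6.73, 6.68 and 7.30 in MMTV-Wnt1 tumors. MMTV-Wnt1 tumor 4 stood above the other 7 tumors, and the difference of -0.26 (SE 0.18) had an unadjusted limma p of 0.190 and an exact permutation p of 0.0857. Without MMTV-Wnt1 tumor 4 it was -0.10. E2f1, also an activator, differed by -0.07 and E2f8, a repressor, by -0.02. Cyclin E is encoded by Ccne1 and Ccne2, which differed by 0.04 and -0.28.

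Of the 10 repair genes 9 averaged lower in MMTV-Wnt/ILK tumors, and 0 had an unadjusted p under 0.05 in limma or in the equal-variance test. Rad54l, a motor protein of homologous recombination, was at 7.59, 7.95, 7.63 and 8.0 in MMTV-Wnt/ILK tumors 1 to 4 and at 7.98, 8.47, 8.22 and 7.85 in MMTV-Wnt1 tumors 1 to 4. The groups overlapped in the upper MMTV-Wnt/ILK and the lower MMTV-Wnt1 tumors. The difference of -0.34 (SE 0.19) had an unadjusted limma p of 0.0995 and an exact permutation p of 0.143, the smallest limma p of the repair genes. Brca2, a mediator of homologous recombination, was at 7.31, 7.30, 7.11 and 7.54 in MMTV-Wnt/ILK tumors and at 6.85, 7.47, 7.32 and 7.30 in MMTV-Wnt1 tumors. It was the one repair gene with a higher mean, by 0.08 (SE 0.18, exact permutation p = 0.629), and without MMTV-Wnt1 tumor 1 the difference was -0.04. Brca1 and Bard1, whose products form a ubiquitin ligase, differed by -0.20 and -0.21.

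Mcm8, a helicase subunit of recombination repair, was at 5.93, 6.0, 5.74 and 5.93 in MMTV-Wnt/ILK tumors 1 to 4 and at 5.71, 6.54, 6.29 and 6.38 in MMTV-Wnt1 tumors 1 to 4. In 3 MMTV-Wnt1 tumors it lay above all MMTV-Wnt/ILK tumors, and MMTV-Wnt1 tumor 1 was the lowest of the 8. The difference was -0.33 (SE 0.20, limma p = 0.125, exact permutation p = 0.143). Without MMTV-Wnt1 tumor 1 it was -0.51 (SE 0.14), with an unadjusted p under 0.05. Blm, a helicase that resolves recombination intermediates, and Exo1, the exonuclease that resects ends, differed by -0.17 and -0.23.

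Chek1 encodes the checkpoint kinase that halts the cycle when forks stall. It was at 7.80, 8.04, 7.80 and 8.26 in MMTV-Wnt/ILK tumors 1 to 4 and at 7.57, 8.72, 9.22 and 8.41 in MMTV-Wnt1 tumors 1 to 4. MMTV-Wnt1 tumors held both the highest values and the lowest, and their SD was 0.69, against 0.22 in MMTV-Wnt/ILK tumors. The difference of -0.51 was the most negative of the repair genes but had an SE of 0.32, an unadjusted limma p of 0.151 and an exact permutation p of 0.257. Without MMTV-Wnt1 tumor 1 it was -0.81 (SE 0.22), with an unadjusted p under 0.05, and without MMTV-Wnt1 tumor 3 it was -0.26 (SE 0.29). Msh6, a mismatch sensor, was at 8.31, 8.37, 8.21 and 8.44 in MMTV-Wnt/ILK tumors and at 8.15, 8.82, 8.09 and 8.62 in MMTV-Wnt1 tumors. The difference was -0.09 (SE 0.19, exact permutation p = 0.657) and turned to 0.05 without MMTV-Wnt1 tumor 2. Fanca, of the Fanconi complex that clears crosslinks, differed by -0.04.

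The 53 genes also varied among the tumors of each group. MMTV-Wnt1 tumor 2 was the highest of all 8 tumors for 31 of the 53 genes, or 58.5%, against 16.3% of all named genes. MMTV-Wnt1 tumor 3 was highest for 13, or 24.5%, against 17.1%, and MMTV-Wnt/ILK tumor 4 for 6, or 11.3%, against 6.98%. The lowest was MMTV-Wnt/ILK tumor 1 for 20 genes, or 37.7%, against 16.1% of all named genes. MMTV-Wnt/ILK tumor 3 was lowest for 10, or 18.9%, against 6.74%. MMTV-Wnt1 tumor 1 was lowest for 14, or 26.4%, near the 26.3% of all named genes. Within the MMTV-Wnt/ILK group, tumor 4 was highest for 33 of 53 genes, or 62.3%, against 19.1% of all named genes. Within the MMTV-Wnt1 group, tumor 2 was highest for 37 genes, or 69.8%, against 3714 of the 14860 named genes, and tumor 1 lowest for 34, or 64.2%, against 40.5%. For 9 genes at least 3 of 4 MMTV-Wnt/ILK values were under every MMTV-Wnt1 value, or 17.0%, against 6.9% of all named genes, and for 0 genes at least 3 were above, against 5.56%. The 9 were Orc1, Mcm2, Mcm3, Mcm7, Cdc45, Gins1, Rpa2, Fen1 and Rrm1. The SD was larger in MMTV-Wnt1 tumors for 39 genes, or 73.6%, near the 69.7% of all named genes, and for all 10 repair genes.

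**Figure D3:**
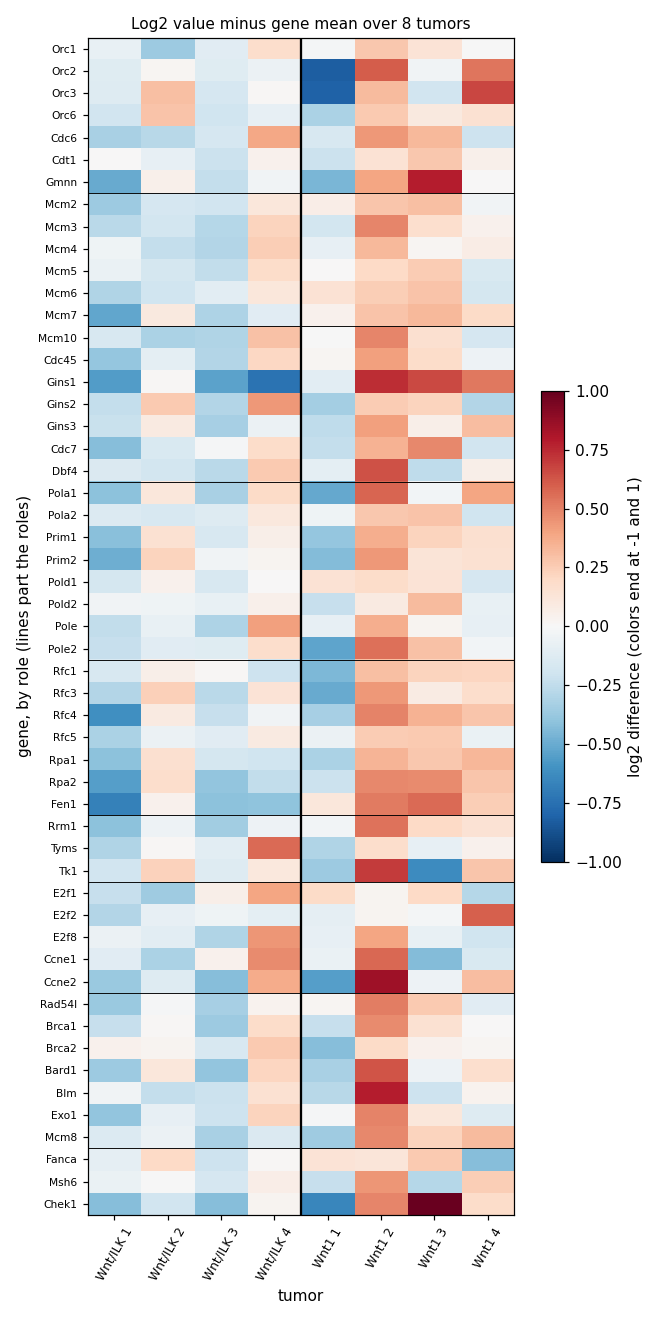
Log2 value of each of the 53 replication and repair genes (rows, by role) in each of the 8 tumors (columns, MMTV-Wnt/ILK left of the line) minus the gene's mean over the 8 tumors, in color. MMTV-Wnt1 tumor 2 is red for most genes, MMTV-Wnt/ILK tumors 1 and 3 are mostly blue, and MMTV-Wnt/ILK tumor 4 and MMTV-Wnt1 tumor 1 run against the rest of their groups.

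To place the tumors, each gene's mean over the 8 tumors was subtracted and the rest averaged over a list. For the replication genes this mean was -0.28, -0.03, -0.21 and 0.10 in MMTV-Wnt/ILK tumors 1 to 4 and -0.21, 0.38, 0.16 and 0.09 in MMTV-Wnt1 tumors 1 to 4. For the repair genes it was -0.21, -0.02, -0.28 and 0.10 in MMTV-Wnt/ILK tumors and -0.24, 0.46, 0.15 and 0.03 in MMTV-Wnt1 tumors. The groups overlapped for both, since MMTV-Wnt/ILK tumor 4 lay with the MMTV-Wnt1 tumors and MMTV-Wnt1 tumor 1 with the MMTV-Wnt/ILK tumors. MMTV-Wnt1 tumor 1 also had the lowest array median, 6.89. After centring each array on its median, the replication mean was -0.20, -0.17, -0.19 and 0.10 in MMTV-Wnt/ILK tumors and -0.01, 0.24, 0.23 and 0.00 in MMTV-Wnt1 tumors, so that only MMTV-Wnt/ILK tumor 4 crossed. The number of lower means among the 53 genes was then 49, with 5 still at an unadjusted p under 0.05. Centring moved all rows the same way. Of all rows 58.1% then had a lower mean, beside 54.7% before, and 2.85% were lower at that threshold, beside 2.21% before.

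Single tumors moved the counts. Without MMTV-Wnt1 tumor 1, 13 of the 53 genes were lower at an unadjusted p under 0.05, beside 5.67% of all rows, and the median was -0.29. Without MMTV-Wnt1 tumor 2, 2 genes were lower at that threshold, beside 2.48% of all rows. Then 40 of 53 had a lower mean, beside 50.7% of all rows, and the median was -0.09. The replication median was then -0.10 and the repair median -0.06, with 7 of 10 repair genes lower. MMTV-Wnt1 tumor 2 also stood apart in fat cell markers, with a mean over 11 markers of 2.11, against 0.01, -0.31 and -0.56 in MMTV-Wnt1 tumors 1, 3 and 4 and -0.44, -0.30, -0.15 and -0.35 in MMTV-Wnt/ILK tumors 1 to 4. All 11 measured of 12 fat cell markers averaged lower in MMTV-Wnt/ILK tumors, with a median of -0.48. Fibroblast markers ran the other way, with 10 of 12 higher in MMTV-Wnt/ILK tumors and a median of 0.67, and 11 of the 12 were lowest in MMTV-Wnt1 tumor 3. Of either list 0 markers had an unadjusted limma p under 0.05. Endothelial markers were highest in MMTV-Wnt1 tumor 2, at 0.78. The mean over 8 mammary epithelial markers was lowest in that tumor, at -0.33. The 3 other cell type means that stood apart were skeletal muscle in MMTV-Wnt/ILK tumor 3, 2.23, and in MMTV-Wnt1 tumor 1, 1.14, and fibroblasts in MMTV-Wnt1 tumor 3, -2.07. The part of these markers in the differences of the replication and repair genes was not tested.

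Other genes of the same processes, from lists of replication and repair genes outside the 57, lay closer to the background. Of 36 measured of 42 other replication genes, 23 had a lower mean, or 63.9%, with a median of -0.04. Cdc25a, the phosphatase that activates Cdk2 at the start of S phase, was lower at an unadjusted p under 0.05, at 7.98, 8.26, 8.22 and 8.38 in MMTV-Wnt/ILK tumors and at 8.41, 8.74, 8.85 and 8.77 in MMTV-Wnt1 tumors. The groups did not overlap, and the difference was -0.48 (SE 0.16, limma p = 0.0143, exact permutation p = 0.0286). Pold4, the smallest subunit of polymerase delta, was higher at that threshold, at 8.03, 8.17, 8.14 and 8.06 in MMTV-Wnt/ILK tumors and at 7.44, 7.47, 8.11 and 7.65 in MMTV-Wnt1 tumors, with overlap at MMTV-Wnt1 tumor 3. The Pold4 difference was 0.44 (SE 0.18, limma p = 0.0358, exact permutation p = 0.0857). With median centring, and without any 1 tumor other than MMTV-Wnt1 tumor 3, 0 of the 36 were higher at that threshold. Of 44 measured of 52 other repair genes, 25 had a lower mean, or 56.8%, with a median of -0.02, and 0 passed an unadjusted p of 0.05 in either direction with limma, while 1 was higher with an equal-variance test. The number of lower ones was 3 with array weights, beside 7.14% of all rows. It was 2 without MMTV-Wnt/ILK tumor 2 or MMTV-Wnt1 tumor 1, beside 3.35% and 5.67% of all rows. With median centring, repeated quantile normalization or the tumor number as a block it was 1, beside 2.85%, 2.49% and 3.17%.

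Mitosis genes also had mostly lower means. Of 27 measured of 30, 26 had a lower mean, or 96.3%, beside 54.7% of all rows and 59.2% of all named genes. The median was -0.26. At an unadjusted p under 0.05, 3 were lower, or 11.1%, beside 2.21% of all rows and 1.82% of all named genes. Without MMTV-Wnt/ILK tumor 3, 21 of the 27 had a lower mean, beside 54.8% of all rows, and the median was -0.12. Without MMTV-Wnt/ILK tumor 4 the median was -0.40. At that threshold 5 were lower without MMTV-Wnt1 tumor 4, beside 2.2% of all rows. When MMTV-Wnt/ILK tumor 1 was left out 1 was lower, beside 1.46% of all rows. The 3 were Nusap1, a spindle protein, Ndc80, a kinetochore protein, and Mad2l1, of the spindle checkpoint, with differences of -0.57, -0.45 and -0.81. The mean over the mitosis genes was -0.15, -0.07, -0.54 and 0.21 in MMTV-Wnt/ILK tumors 1 to 4 and -0.06, 0.51, 0.16 and -0.06 in MMTV-Wnt1 tumors 1 to 4. As for replication, MMTV-Wnt1 tumor 2 was highest and MMTV-Wnt/ILK tumor 4 the highest of its group. No test of the lists against each other was made.

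**Figure D4:**
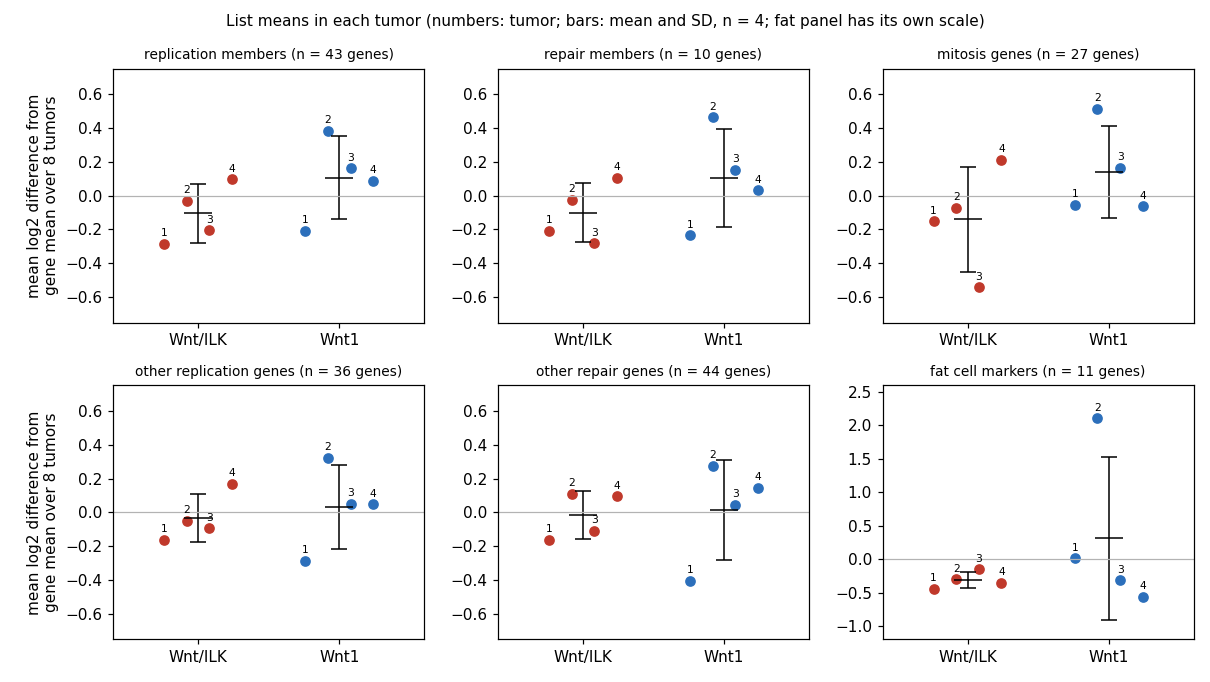
Mean log2 difference from the gene mean over 8 tumors, averaged over each list, in each tumor (points, numbered by tumor), with the mean and SD of each group (bars, n = 4), MMTV-Wnt/ILK left and MMTV-Wnt1 right. The groups overlap in every panel, and MMTV-Wnt1 tumor 2 is the highest of the 8 for each list, with 2.11 for fat cell markers on a wider scale.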

How the data were processed

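The deposited table holds log2 values, which the authors made from 8 arrays with the RMA algorithm of ArrayAssist (background correction and summary of probe sets at the core-exon and gene level) and quantile normalization between chips. Their range set the log base, and the genome build is not given in the sources used here. RMA pulls low signals together, so differences of dim genes may be understated. Array medians differ despite the stated normalization, and 2 further normalizations were therefore tried. Precision is limited by the number of arrays.

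Of the 23332 rows, 14996 carry exactly 1 gene in the platform annotation supplied for the table, 1019 several and 7317 none. Where a gene had several rows, the one with the highest mean over the 8 arrays stood for it. Groups and tumor numbers came from the sample labels. MMTV-Wnt/ILK was compared with MMTV-Wnt1 in limma (version 3.58.1, R 4.3.3), using lmFit and eBayes on all rows without filter or covariates, 2-sided, with Benjamini-Hochberg adjustment over all rows. An exact permutation test was added for single genes. The fit was tested on simulated data. The alternatives tried were a test with equal variances for each row (as in the deposited design text), a robust variance trend, array weights, removal of the dimmest 25% of rows, median-centred arrays, quantile normalization applied again, tumor number as a block, removal of each tumor in turn, and averaging the rows of a gene. Promoters came from RefSeq on GRCm38.p6, and 45 of 53 genes matched by symbol. Figures were drawn with matplotlib 3.10.9.

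The members, the lists and the tests were chosen with earlier results of these data known. Per-tumor values are given for genes with an unadjusted p under 0.05, the gene with the smallest p of each role, and in replication and repair the most positive and most negative difference and the highest and lowest mean level. Mcm2 and the genes of the other lists were added after their values were seen. Exon-level values were not used here.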

Additional observations from a re-analysis of the deposited data

Results flagged for a closer look

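In groups of 4 tumors, 7 values lay far from the other 3 of their group, with a gap to the nearest, relative to the group's whole range, past Dixon's critical value. With 130 groups examined, chance alone flags about 1 in 20, or 6.5. Pola2, of the polymerase alpha complex, was at 8.13 in MMTV-Wnt/ILK tumor 4, against 7.87 to 7.90 in the other 3 MMTV-Wnt/ILK tumors. Pold1, the catalytic subunit of polymerase delta, was at 7.76 in MMTV-Wnt1 tumor 4, against 8.06 to 8.11 in the other 3 MMTV-Wnt1 tumors. Both Rfc1 of the clamp loader and Rpa1 of the single-strand binding protein were low in MMTV-Wnt1 tumor 1. Rfc1 was at 8.54 there, against 9.20 to 9.29 in the other 3 MMTV-Wnt1 tumors, and Rpa1 was at 8.96, against 9.55 to 9.62.

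The other 3 values were means over cell type markers, as log2 differences from the gene means over the 8 tumors. The fibroblast mean was -2.07 in MMTV-Wnt1 tumor 3, against 0.13 to 0.41 in the other 3 of its group. The skeletal muscle mean was 2.23 in MMTV-Wnt/ILK tumor 3, against -0.66 to -0.56, and 1.14 in MMTV-Wnt1 tumor 1, against -0.63 to -0.41. The part of these tumors in the differences of the replication and repair genes was not tested beyond the values without each tumor.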

How the results depend on the processing

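The number of replication and repair genes lower at an unadjusted p under 0.05 was 5 with limma. With array weights it was 10, beside 7.14% of all rows. Under the other settings that kept all tumors it was 4 to 6, beside 1.86% to 3.17% of the rows fitted. Without 1 tumor it was 2 to 13, beside 1.33% to 5.67% of all rows. Those higher numbered 0 under every setting. Fen1 and Gins1 were among the lower genes under every setting. The number of rows at an adjusted p under 0.05 was 0 except without MMTV-Wnt/ILK tumor 2, where it was 13, a range of 0 to 13 over the tumors left out. With the tumor number as a replicate block, 6 genes were lower, Rfc4 joining the 5. Same-numbered tumors correlated at 0.11, 0.13, 0.15 and -0.0041 in their deviations from the group means, and only tumors 1 and 3 correlated best with their own number, so the numbers are not read as pairs. Under all settings the lower means numbered 33 to 42 of the replication genes and 7 to 10 of the repair genes. Of the rows fitted, 50.7% to 60.8% had a lower mean. Medians with 1 tumor left out ran from -0.281 (no MMTV-Wnt1 tumor 1) to -0.096 (no MMTV-Wnt1 tumor 2) for replication. For repair they ran from -0.308 (no MMTV-Wnt/ILK tumor 4) to -0.057 (no MMTV-Wnt1 tumor 2) and for mitosis genes from -0.396 to -0.116. With 1 tumor left out, the difference ran from -0.091 (no MMTV-Wnt/ILK tumor 4) to 0.198 for Tyms, -0.045 (no MMTV-Wnt1 tumor 1) to 0.162 for Brca2 and -0.197 to 0.046 (no MMTV-Wnt1 tumor 2) for Msh6. Tyms also turned, at -0.0034, when MMTV-Wnt1 tumor 1 was left out. The median of the other replication genes ran from -0.189 (no MMTV-Wnt1 tumor 1) to 0.042 (no MMTV-Wnt1 tumor 2). That of the other repair genes ran from -0.211 (no MMTV-Wnt1 tumor 1) to 0.067 (no MMTV-Wnt1 tumor 2). The median of the other repair genes was also above 0 without MMTV-Wnt/ILK tumor 1 (0.031) or 3 (0.0061) or MMTV-Wnt1 tumor 4 (0.042). The cause was not tested. Of the 53 genes only Gmnn had a mean in the lowest quartile of row means, at percentile 24.7. Mcm8 and Gins1 stood at percentiles 32.9 and 36.2. Differences of such dim genes may be understated.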
